A study of Mus musculus with 4 samples.

Results

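The clustered protocadherin genes were examined in medial basal radial glial cells of the embryonic mouse cortex. Members were the protein-coding genes of the deposited count table whose Ensembl identifier has, in the GENCODE M21 annotation of GRCm38, a symbol beginning with Pcdha, with Pcdhb and a digit, or with Pcdhg. They numbered 57 of the 45706 genes of the table, of which 21519 are protein coding. The α cluster held 14 of them, the β cluster 22 and the γ cluster 21. The C-type isoforms, which close the α and γ clusters, accounted for 5 (Pcdhac1, Pcdhac2, Pcdhgc3, Pcdhgc4 and Pcdhgc5). Pcdhgb8, a polymorphic pseudogene in that annotation, was not a member.

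Clustered protocadherins are adhesion proteins of the cadherin superfamily that bind the same isoform on a facing membrane. In neurons, promoter choice within the clusters gives a cell its own combination of alternative isoforms, a process known to need CTCF, cohesin and DNA methylation, while C-type promoters are controlled differently. In the α and γ clusters each gene supplies a large variable exon that is spliced to the constant exons of its cluster, which encode a shared cytoplasmic tail, whereas β genes have no constant exons.

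All 4 libraries formed a single group, so no condition was contrasted. They came from embryos at E18.5 of the strain C57BL/6JOlaHsd that carried Tubb-GFP on 1 of 2 alleles, and the titles add DiI, a lipophilic membrane dye. How reporter and dye served to isolate the cells, and whether libraries 1 to 4 came from separate animals, is not given in the labels, so p-values reflect only how far these 4 samples differ, and that spread may be of technical origin. Poly-dT primed, template-switched and amplified cDNA was sheared before library preparation.

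Libraries held 26540656 to 34837657 counts. All 8 radial glia markers were above 1 TPM (counts per exon length, scaled to the same total in every library; edgeR's quasi-likelihood test, Benjamini-Hochberg adjusted p under 0.05), with a summed level of 5156 to 6249 TPM. Of 5 basal radial glia markers 4 were above, among them Hopx at 4.15 ± 0.575 TPM (SD, n = 4), whereas Fam107a stood at 0.566 ± 0.301 TPM. Markers of other cells were also present. Of all genes tested 66.4% were above 1 TPM, and of the protein-coding ones 76.3%, so these counts alone do not show a cell type. All 6 neuron markers were above 1 TPM, with a sum of 9229 to 10260 TPM that exceeded the radial glia sum in every library. Each sum rests mainly on 1 gene, Tubb3 (6673 ± 474 TPM) and Fabp7 (4620 ± 393 TPM), so the sums do not measure how much RNA each cell type gave. Also above were 4 of 4 intermediate progenitor, 5 of 5 astrocyte, 5 of 5 oligodendrocyte lineage and 5 of 5 erythroid markers. Erythroid markers summed to 2365, 4186, 2690 and 2428 TPM in replicates 1 to 4, so replicate 2 was the highest. Among them Hbb-bs had 1179 ± 354.5 TPM. Intermediate progenitor markers summed to 551.4 to 588.2 TPM, astrocyte markers to 94.97 to 117.9 TPM and oligodendrocyte lineage markers to 45.49 to 53.94 TPM. Microglial markers summed to 15.1 to 31.7 TPM (4 of 5 above), interneuron markers to 15.8 to 24.8 TPM (5 of 6 above), meningeal markers to 5.73 to 8.34 TPM (2 of 5 above) and endothelial markers to 3.04 to 4.51 TPM (1 of 5 above), and no marker of any list had a mean of 0. The part of these cells in the protocadherin levels was not tested, and in such bulk samples fewer cells of a type and less RNA per cell cannot be told apart.

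Which bases of a member can be counted had to be settled before levels were compared. The α cluster lies on the plus strand at chr18:36930184-37187661, the β cluster at chr18:37264938-37524479 and the γ cluster at chr18:37661793-37841873 (GRCm38). Because α and γ members share their constant exons, a read there belongs to no single gene. Pcdhga10 has no exon base to itself, since the 2613 bases outside its shared exons are also covered from the opposite strand, and it had 0 counts in all 4 libraries. Of the 68 protein-coding genes with no exon base of their own on either strand or on their own strand, 64 had 0 counts (94.1%), and so had 23 of 33 (69.7%) whose own bases are free only when strand is used, against 3817 of 15147 genes (25.2%) that share no exon. Reads on shared bases were therefore treated as dropped without regard to strand, and each level is the count per kilobase of exon that no other gene covers (own exon bases), scaled to TPM. This remains an assumption, since the strand setting is not given and some of those 33 genes did have counts. Own bases made up less than the whole exon sequence in 38 of the 57 members, and in the α and γ clusters they lie mainly in the variable exon.

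**Figure D1:**
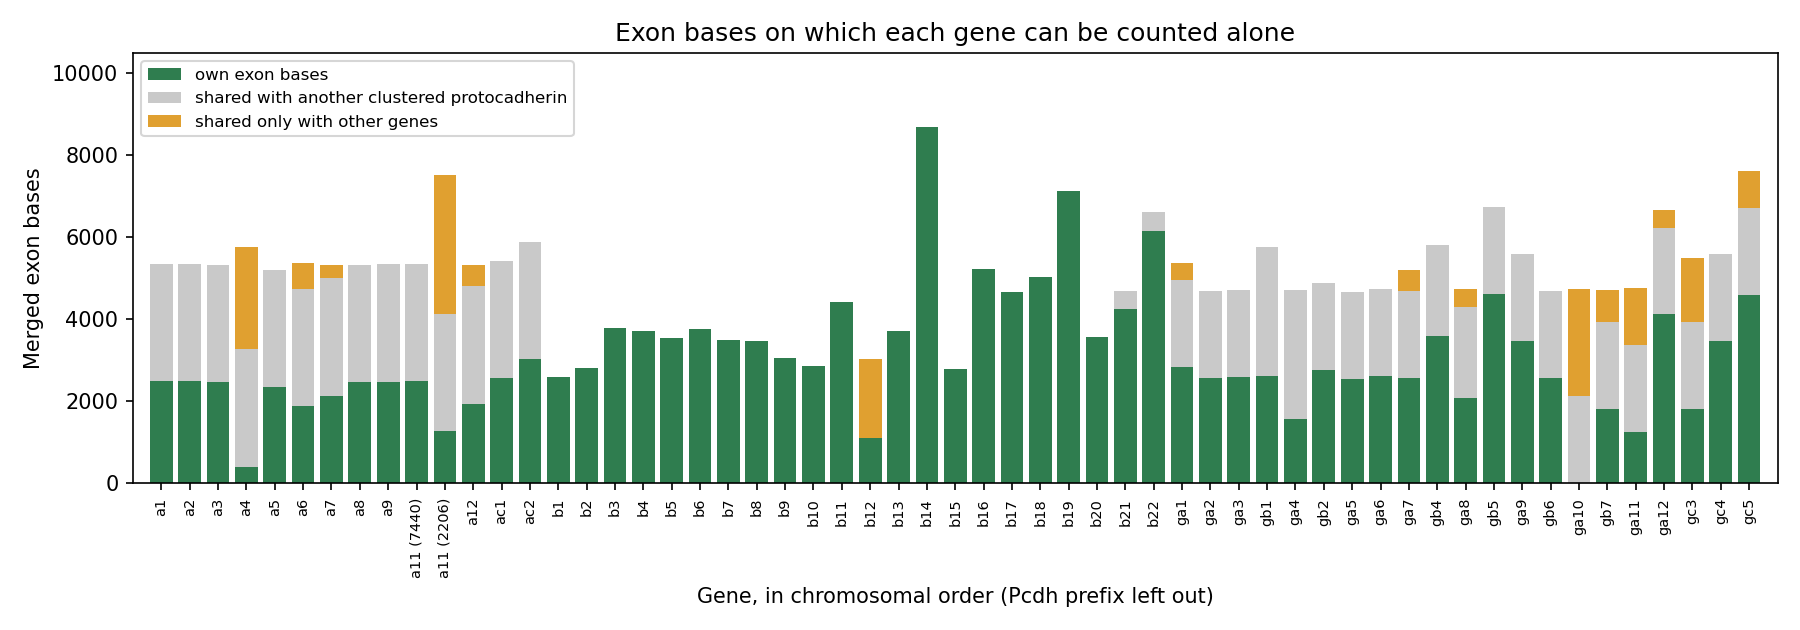
Merged exon bases of each of the 57 members in chromosomal order, split by colour into bases of its own, bases shared with another clustered protocadherin and bases shared only with other genes; the last digits of the identifier mark the 2 genes that share the symbol Pcdha11. Most β bars are a gene's own from bottom to top, α and γ bars are mostly grey above the variable exon, and Pcdhga10 has none of its own.

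Nearly the whole family was present, at a median level near that of all genes tested and below that of the protein-coding ones. Of the 57 members 51 lay above 1 TPM, 1 lay below (Pcdha1), 2 could not be told from 1 TPM (Pcdha6 and the Pcdha11 gene ENSMUSG00000102206) and 3 were not tested. Across all 20519 genes tested 66.4% were above and 10.9% below, and across the 15366 protein-coding genes tested 76.3% were above and 10.5% below. Not tested were Pcdhga10, Pcdha4, which had 1 count over 404 own bases, none of them coding, and Pcdhb1, which had 0 counts over 2588 own bases. A count of 0 allows up to 3 counts, or 0.103 to 0.141 TPM of Pcdhb1 depending on the library, counting error only. The median level of the 54 tested members was 5.38 TPM, beside 5.10 TPM for all genes tested and 9.43 TPM for the protein-coding ones.

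Members together received 14602, 19010, 15721 and 13722 counts in replicates 1 to 4, or 0.0522%, 0.0546%, 0.0527% and 0.0517% of each library. Their summed level was 601, 625, 610.3 and 616 TPM (613 ± 10.1, SD, n = 4). The γ cluster made up most of it, with 430.5, 451, 454 and 430.3 TPM (442 ± 13.1). The β cluster summed to 123, 124, 117 and 139.5 TPM (126 ± 9.54), and the α cluster to 48.1, 49.8, 38.7 and 45.8 TPM (45.6 ± 4.91). The ranges of the 3 clusters did not overlap, and replicate 3 was lowest for both α and β and highest for γ.

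**Figure D2:**
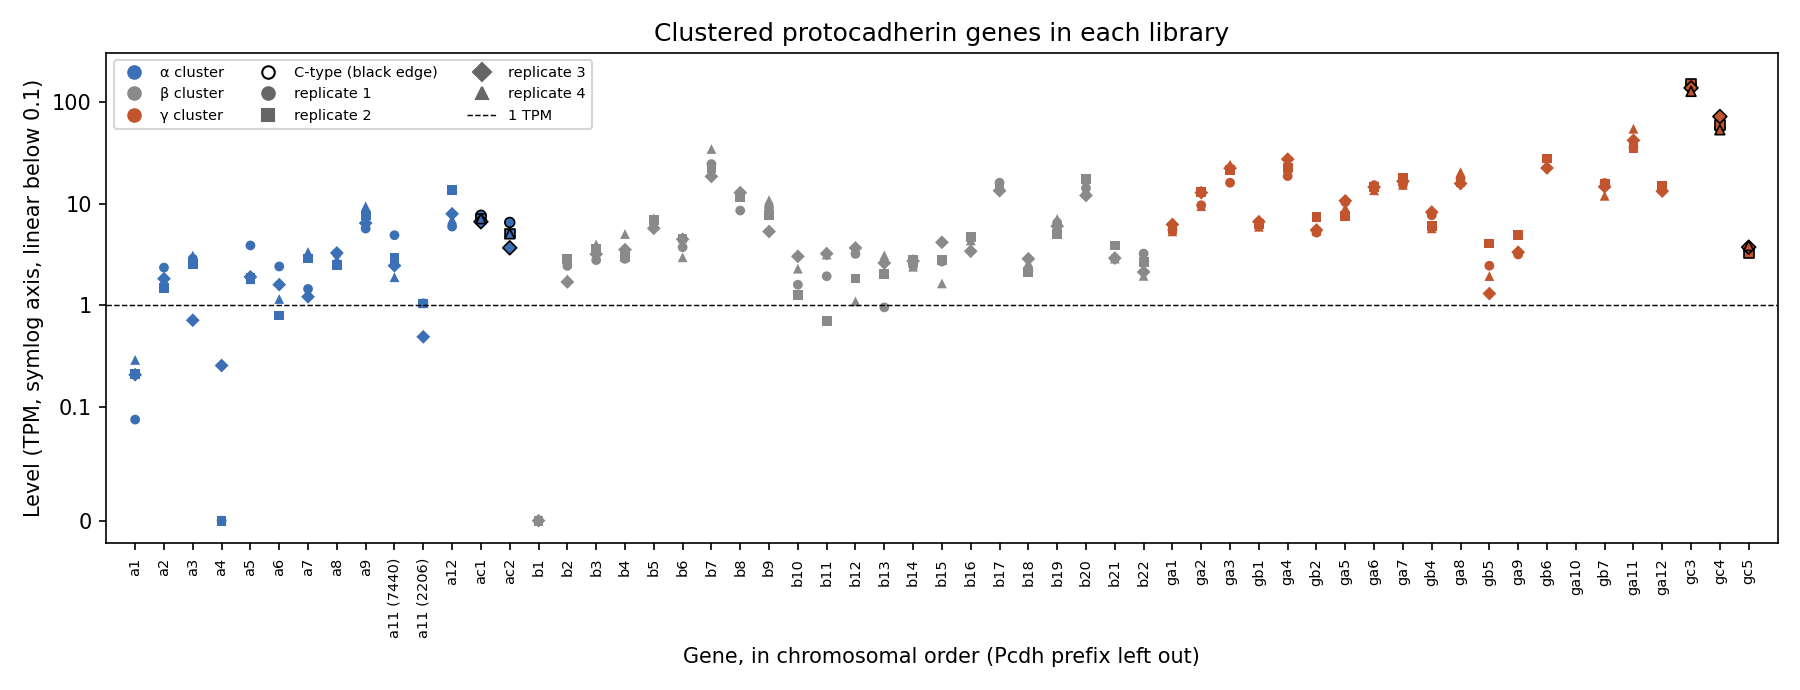
Level in TPM (symlog axis) of each member in each library, by chromosomal order, with clusters by colour, replicates by marker shape, C-type isoforms by a black edge and a dashed line at 1 TPM; Pcdhga10 has no level. Pcdhgc3 stands highest at 126 to 148 TPM, most α members lie between 1 and 10 TPM, and Pcdhb1 lies at 0.

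C-type isoforms ranged from the highest member of the family to levels below those of most γ genes. Pcdhgc3, whose protein is known to bind Axin1 and restrain Wnt signalling, was the highest member, with 145, 148, 136 and 126 TPM (139.0 ± 10.03; 2381, 3056, 2382 and 1893 counts). It was above every other member in every library. It stood 7.12 ± 0.03 (SE) above 1 TPM on the log2 scale (adjusted p = 7.0e-18 by edgeR's quasi-likelihood test). Only 1821 of its 5499 exon bases are its own, and 1559 lie opposite an exon of another gene, BC037039, an antisense transcript at 28.7 ± 4.78 TPM.

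Pcdhgc4, the isoform known for its role in neuronal survival, was the next highest by mean, with 55.6, 59.3, 71.4 and 53.0 TPM (59.8 ± 8.16; adjusted p = 4.8e-16 by edgeR). Its lowest library was far above the next C-type isoform, but the alternative member Pcdhga11 exceeded it in replicate 4, with 54.2 TPM. Pcdhac1 had 7.68, 7.15, 6.63 and 7.11 TPM (7.15 ± 0.429; edgeR adjusted p = 2.7e-10). Pcdhac2, known for its role in serotonergic axons, had 6.53, 5.08, 3.68 and 5.05 TPM (5.09 ± 1.16; edgeR adjusted p = 2.5e-08). Pcdhgc5 was the lowest, with 3.69, 3.30, 3.73 and 3.87 TPM (3.65 ± 0.244; edgeR adjusted p = 3.1e-08). Values of Pcdhac2 and Pcdhgc5 overlapped, and those of Pcdhac2 and Pcdhac1 did not. None of the 50-base stretches within the own bases of these 5 genes occurred in the exons of another gene.

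All 10 pairs of C-type isoforms were compared within each library on the log2(TPM + 0.5) scale, with signs flipped in an exact permutation test (two-sided), in which 4 libraries cannot give a p below 0.13. Pcdhgc3 exceeded Pcdhgc4 by 1.22 ± 0.20 (log2, SD), or 2.32-fold, and Pcdhgc5 by 5.07 ± 0.18, or 33.6-fold. Pcdhgc4 exceeded Pcdhgc5 by 3.85 ± 0.22, or 14.5-fold. The lead of Pcdhgc3 over Pcdhgc4 shrank to 1.24-fold per merged exon, 1.31-fold per longest transcript and 1.22-fold with no length, and was 2.83-fold per own coding base. Its lead over Pcdhgc5 shrank to 17.4-fold, 15.4-fold and 13.9-fold in the same 3 cases. Between the α isoforms, Pcdhac1 exceeded Pcdhac2 by 0.48 ± 0.23, and it exceeded Pcdhgc5 by 0.88 ± 0.12. These and the other pairs that set an α isoform against Pcdhgc3 or Pcdhgc4 had the same sign in 4 of 4 libraries (exact permutation p = 0.13, adjusted over the 10 pairs 0.139). Only the pair of Pcdhac2 and Pcdhgc5 did not, with 0.41 ± 0.33 in favour of Pcdhac2 in 3 of 4 libraries (exact permutation p = 0.25, adjusted 0.25). It turned to -0.14 when levels were taken per longest transcript or with no length at all, and to -0.19 per own coding base. The lead of Pcdhac1 over Pcdhgc5 kept its sign but also depended on the length. It shrank to 0.52 per merged exon, 0.18 per longest transcript, 0.11 with no length and 0.13 per own coding base.

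Within the γ cluster Pcdhgc3 took 33.7%, 32.9%, 29.99% and 29.3% of the summed level (31.5% ± 2.16), Pcdhgc4 13.5% ± 1.51 and Pcdhgc5 0.827% ± 0.0715. Within the α cluster Pcdhac1 took 15.8% ± 1.16 and Pcdhac2 11.1% ± 1.78. The 5 isoforms thus held 44.1% of the summed α and γ level, nearly all of it through Pcdhgc3 and Pcdhgc4. The share of Pcdhgc3 depended on the length used, from 23.5% per merged exon to 39.5% per own coding base.

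**Figure D3:**
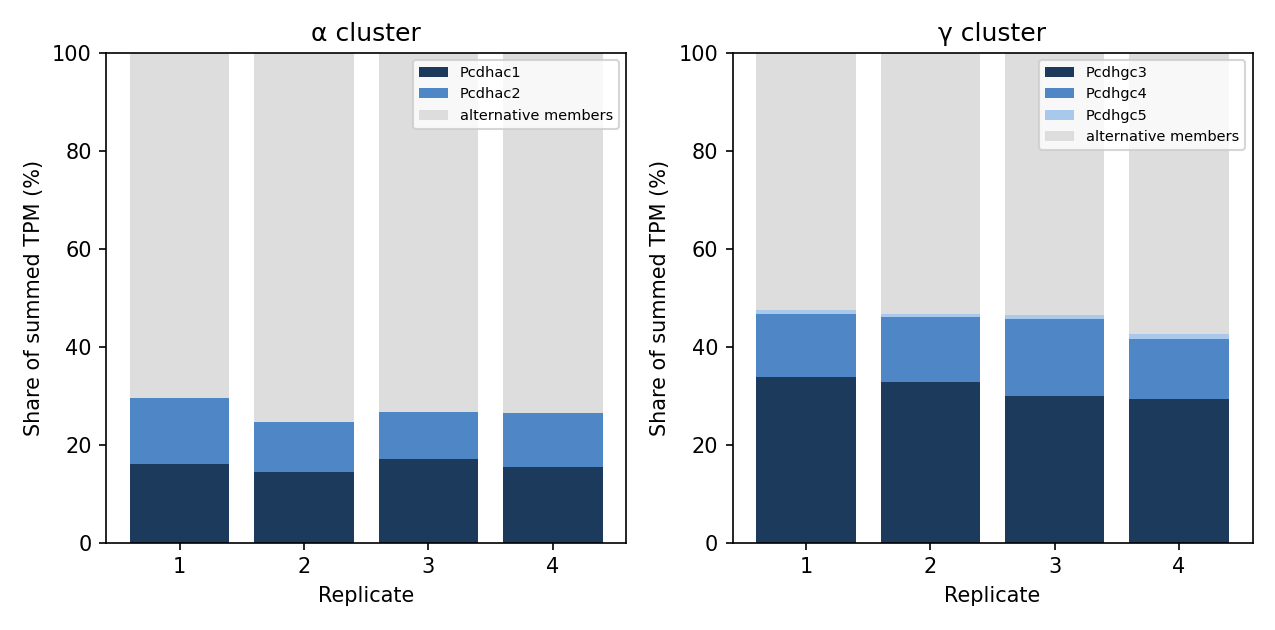
Share of the summed TPM of the α cluster (left) and the γ cluster (right) taken by each C-type isoform and by all alternative members, as stacked bars from 0 to 100% for replicates 1 to 4. Pcdhgc3 and Pcdhgc4 fill over 40% of every γ bar, whereas Pcdhgc5 is a thin line.

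Among the alternative (non C-type) members, γ genes were higher than those of the other clusters. Of 18, 17 lay above 1 TPM, and their levels ran from 2.44 to 41.7 TPM around a median of 14.0. Pcdhga11 had 35.7, 35.3, 41.7 and 54.2 TPM (41.7 ± 8.80). It had only 1256 own bases, fewer than any other γ gene with a level. Pcdhgb6 had 27.4, 27.6, 22.3 and 24.02 TPM (25.4 ± 2.60), below Pcdhga11 in every library. That order turned with the length, to 11.7 TPM for Pcdhga11 against 14.7 for Pcdhgb6 per merged exon, 8.71 against 10.98 per longest transcript, and 16.7 against 20.8 CPM with no length. Pcdhga4 followed with 18.6, 22.5, 27.3 and 22.3 TPM (22.7 ± 3.55) and Pcdhga3 with 16.0, 21.5, 22.2 and 24.1 TPM (20.96 ± 3.46), and these 3 overlapped one another.

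At the low end of the γ cluster, Pcdhgb5 had 2.46, 4.06, 1.31 and 1.94 TPM (2.44 ± 1.18) and Pcdhga9 had 3.17, 4.94, 3.33 and 4.93 TPM (4.09 ± 0.976). Their ranges overlapped, and both still lay above 1 TPM (edgeR adjusted p = 2.6e-04 and 1.4e-07). The remaining 11 γ genes with a level lay between 5.68 (Pcdhga1) and 17.4 TPM (Pcdhga8). The 11 Pcdhga genes with a level had a median of 14.4 TPM and the 6 Pcdhgb genes of 6.62 TPM, with ranges of 4.09 to 41.7 and 2.44 to 25.4 TPM that overlapped widely. Of the 50-base stretches in the own bases of Pcdhgb genes, 3.94% to 16.75% also occurred in another gene. For Pcdhga genes with a level the share was 0.0% to 4.61%. The part of this in the difference between Pcdhga and Pcdhgb was not tested.

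The β genes, mostly single-exon genes whose protein ends soon after the membrane, were lower. Of 22, 21 lay above 1 TPM, with a median of 3.26 TPM. Pcdhb7 stood out with 24.4, 22.4, 18.5 and 34.3 TPM (24.9 ± 6.75), and its lowest library was above every value of every other β gene. Pcdhb17 had 16.0, 14.1, 13.4 and 15.6 TPM (14.8 ± 1.25), Pcdhb20 had 14.2, 17.3, 12 and 13.7 TPM (14.3 ± 2.21) and Pcdhb8 had 8.54, 11.7, 12.8 and 11.6 TPM (11.2 ± 1.82). Their ranges overlapped, except that Pcdhb8 stayed below Pcdhb17 throughout.

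The lowest β genes tested were Pcdhb10, with 1.60, 1.27, 3.03 and 2.30 TPM (2.05 ± 0.783; edgeR adjusted p = 0.0018), and Pcdhb13, with 0.958, 2.05, 2.61 and 3.11 TPM (2.18 ± 0.922; edgeR adjusted p = 0.0012). These 2 overlapped fully. The other 15 tested β genes lay between 2.21 (Pcdhb2) and 8.24 TPM (Pcdhb9). Pcdhb1, the first gene of the cluster, was the only β gene with no count.

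The α alternative genes were the lowest. Of 12, 8 lay above 1 TPM and 1 below, with a median of 2.27 TPM. Pcdha12, the last before the C-type genes, had 5.94, 13.7, 7.93 and 6.99 TPM (8.64 ± 3.47), and Pcdha9 had 5.69, 7.63, 6.42 and 9.39 TPM (7.28 ± 1.62). The 2 overlapped each other and Pcdhac1. Next came the Pcdha11 gene ENSMUSG00000007440, with 4.89, 2.94, 2.46 and 1.89 TPM (3.04 ± 1.30), and Pcdha8, with 3.23, 2.498, 3.28 and 2.84 TPM (2.96 ± 0.366).

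Pcdha1, the first gene of the cluster, was the lowest tested member of the family, with 0.0893, 0.213, 0.209 and 0.292 TPM from 2, 6, 5 and 6 counts. It stood at -2.32 ± 0.70 (log2, SE) against 1 TPM (edgeR adjusted p = 0.013). The Pcdha11 gene ENSMUSG00000102206 had 1.05, 1.05, 0.493 and 1.05 TPM (0.911 ± 0.279; edgeR adjusted p = 0.78), but only 54 of its 1268 own bases are coding. It was called below 1 TPM per merged exon (-2.62, log2), per longest transcript (-2.55) and with own bases counted on the same strand (-1.945). Pcdha6 had 1.49 ± 0.697 TPM (edgeR adjusted p = 0.11) and was called above without replicate 2. By contrast, it was called below per merged exon (-0.85; edgeR adjusted p = 0.044) and per longest transcript (-1.27; edgeR adjusted p = 0.0082). The remaining 4 tested α genes, Pcdha2, Pcdha3, Pcdha5 and Pcdha7, lay between 1.87 and 2.36 TPM. Per merged exon, a length that includes shared bases, Pcdha2 and Pcdha7 turned to -0.12 and -0.081 (log2) against 1 TPM, and per longest transcript so did all 4. Between 10.2% and 25.5% of the 50-base stretches in the own bases of the α alternative genes, ENSMUSG00000102206 and Pcdha4 aside, also occurred in another gene, and a read of such a stretch alone cannot be placed.

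Set side by side as medians of log2(TPM + 0.5) over alternative members, the clusters kept their order in each library. The α median was 1.36 ± 0.22 (SD, n = 4), the β median 1.90 ± 0.07 and the γ median 3.79 ± 0.12. The difference of β minus γ was -2.01, -1.99, -1.79 and -1.77 in replicates 1 to 4 (-1.89 ± 0.13), and that of α minus γ was -2.185, -2.501, -2.64 and -2.40 (-2.43 ± 0.19). The difference between α and β was smaller, at -0.17, -0.51, -0.84 and -0.63 (-0.54 ± 0.28), negative in 4 of 4 libraries but near 0 in the first. The α median includes Pcdha4, with 0 own coding bases, and ENSMUSG00000102206, with 54, both below it in every library. The β median includes Pcdhb1, with 0 counts. The order of α and β in replicate 1 may rest on such genes. The median of the C-type isoforms exceeded that of all other members by 0.58 ± 0.09, positive in 4 of 4. No p is given for these medians, because the members were chosen.

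How far the clusters lay apart depended on the length behind the level. Per own coding base the difference of β and γ was -1.20 and that of α and β -1.18. Per merged exon they were -0.91 and -1.36. The difference of α and γ stayed between -2.64 and -2.15 in all alternatives tried. The C-type median led by 0.13 per own coding base and by 0.09 per merged exon, whereas with means in place of medians it led by 1.69. Own bases of α and γ genes lie mainly in the variable exon, far from the poly-A tail where cDNA synthesis was primed, whereas those of β genes reach the end of the transcript. The part of this in the cluster differences was not tested.

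**Figure D4:**
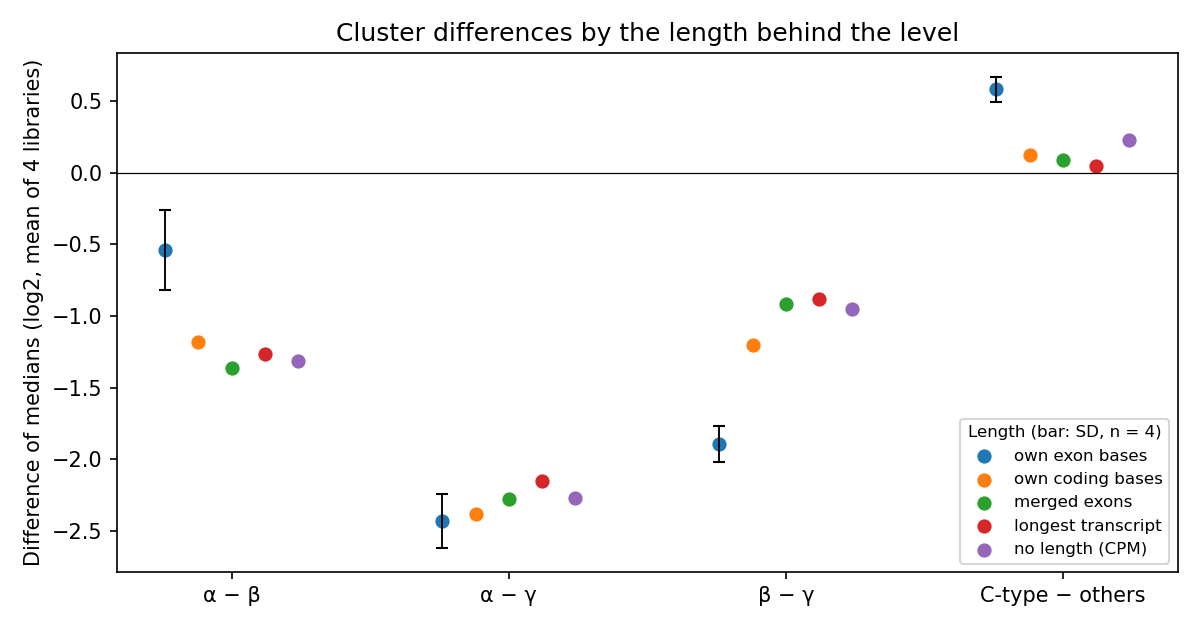
Difference of cluster medians on the log2 scale (mean of 4 libraries) for each comparison, with points coloured by the length behind the level and the SD over 4 libraries drawn for own exon bases. All points for α minus β, α minus γ and β minus γ lie below 0, and those for C-type minus other members lie between 0.05 and 0.58.

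In the ranking of the 54 tested members, neighbours could seldom be told apart. Of the 53 pairs of neighbours the ranges over libraries overlapped in 49. The exceptions were Pcdhgc3 over Pcdhgc4, Pcdhga11 over Pcdhgb6, Pcdhga12 over Pcdhga2 and, at the bottom, ENSMUSG00000102206 over Pcdha1, of which Pcdhga11 over Pcdhgb6 turned under other lengths as given above. Position along a cluster followed the level of α alternative genes loosely, with higher levels towards the 3′ end (Spearman's rho 0.59 across 12 genes), and less so in β (0.13 across 22) and γ (0.23 across 17). The 12 α genes include Pcdha4, with 0 own coding bases, and ENSMUSG00000102206, with 54. In γ the level was lower where own exon bases were more numerous (-0.77 across 17 genes). The level per own coding base against the number of own coding bases gave -0.49, and in both cases the number of bases is also the divisor of the level. These are descriptions across genes of the same libraries, and genes are not independent replicates.

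Spread between libraries differed among members. The coefficient of variation of the 54 tested members ran from 4.53% (Pcdhga12) to 53.0% (Pcdhb11), with a median of 17.4%. For 13 members it was at most 1.5 times what counting error alone gives, and for 18 it was over 3 times that. Pcdhb7, at 27.1% where counting gives 3.50%, Pcdhgc4, at 13.7% against 2.24%, and Pcdha12, at 40.1% against 7.76%, were among the latter. Pcdhgc5 (6.68%) and Pcdhac1 (6.00%) stayed within counting error.

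Against genes of like abundance, no member was called more variable. Tested by edgeR's quasi-dispersion against its trend, 0 of 53 members with at least 40 counts passed at an adjusted p under 0.05, as did 0 of 16706 genes (0.0%). At an unadjusted p under 0.05 there were 2 members, Pcdhb11 and Pcdhb7 (edgeR adjusted p = 0.97 for both), beside 789 genes (4.72%). The ratio of dispersion to trend had a median of 1.02 over members and 0.88 over all genes. No library was high throughout, since replicates 1 to 4 were the highest for 10, 15, 13 and 16 members.

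**Figure D5:**
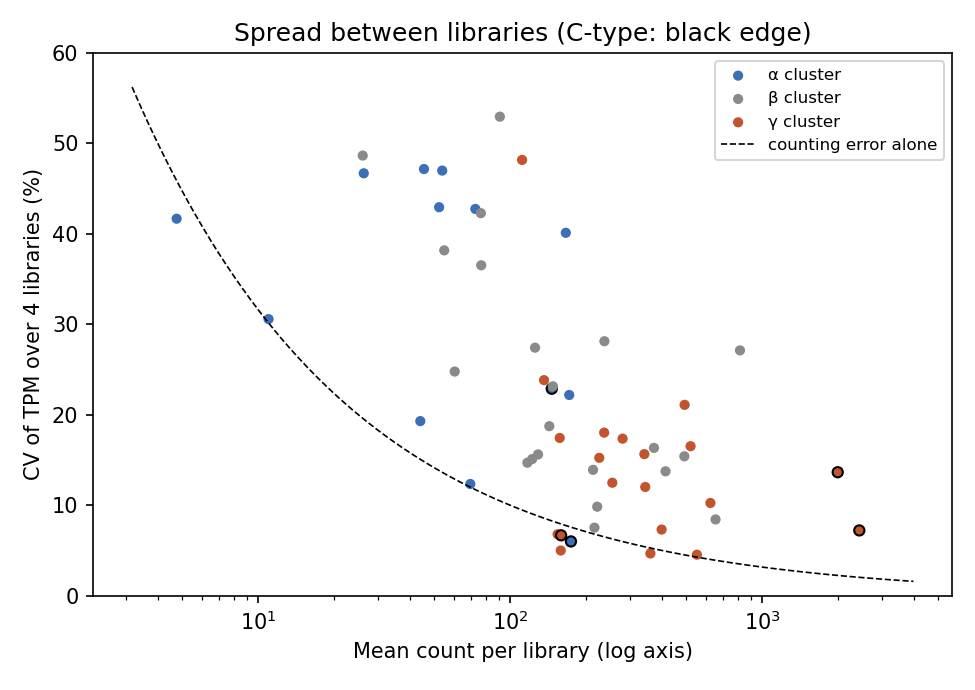
Coefficient of variation of TPM over 4 libraries against the mean count per library (log axis) for the 54 tested members, with clusters by colour, C-type isoforms by a black edge and counting error alone as a dashed line. Most points lie above the line, Pcdhb11 is highest at 53.0%, and Pcdhgc3 and Pcdhgc4 lie farthest right.

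Of 20 genes listed as regulators of chromatin architecture and DNA methylation, 19 matched a symbol (Znf143 did not and was not examined). These 19 lay above 1 TPM, with a median of 21.8 TPM, beside 66.4% of all genes tested and 76.3% of the protein-coding ones. Smc1a and Smc3, which form the cohesin ring, stood at 165 ± 6.57 and 111 ± 6.89 TPM, Dnmt1, the maintenance DNA methyltransferase, at 95.05 ± 4.05 TPM and Wapl, which releases cohesin, at 81.9 ± 16.5 TPM. Ctcf had 53.8 ± 0.928 TPM and the cohesin subunit Rad21 49.96 ± 5.97 TPM. Smchd1, a repressor of the clusters, had 5.34 ± 0.595 TPM, and Dnmt3b, the methyltransferase that sets methylation at alternative promoters, was the lowest of the list at 1.91 ± 0.244 TPM (edgeR adjusted p = 1.7e-04).

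Of 17 cytoplasmic and membrane partners 15 lay above 1 TPM, with a median of 52.2 TPM. Beside this list and that of proteolytic processing stand 76.3% of the protein-coding genes tested above 1 TPM. Brk1 and Abi1, subunits of the WAVE complex that drives actin branching, had 691 ± 42.2 and 95.7 ± 7.34 TPM, the actin regulator Marcks 531 ± 59.0 TPM and β-catenin (Ctnnb1) 165 ± 11.8 TPM. Ptk2, a kinase that γ-protocadherins inhibit, had 17.8 ± 1.18 TPM and Axin1 14.8 ± 1.74 TPM. The related kinase Ptk2b, at 0.892 ± 0.398 TPM, could not be told from 1 TPM. The receptor Ret lay below, at 0.604 ± 0.220 TPM (edgeR adjusted p = 0.032), a call lost without replicate 1, 2 or 3. All 8 genes of proteolytic processing, in which ADAM10 and then γ-secretase cut the proteins, lay above 1 TPM, among them Ncstn (175 ± 6.20 TPM), Psenen (154 ± 5.34) and Adam10 (53.2 ± 4.37).

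Of 17 genes flanking or lying between the clusters 16 lay above 1 TPM and Arap3 below (0.119 ± 0.0982 TPM). Of the protein-coding genes tested 76.3% lay above and 10.5% below. Ndufa2 (1054 ± 80.6 TPM), Hars (300.1 ± 12.5), Zmat2 (274 ± 8.88) and Ik (172 ± 1.34), which lead this list, each exceeded every clustered protocadherin. Taf7, which lies between the β and γ clusters, had 89.5 ± 3.20 TPM, and Diaph1, which follows the γ cluster, 8.01 ± 1.86 TPM. The δ-protocadherins, which are encoded outside the clusters, were above 1 TPM in 10 of 10 cases, beside the same 76.3%. Their median was 8.29 TPM, and their sum of 141 to 177 TPM lay between those of the β and γ clusters. Pcdh9 (67.6 ± 11.3 TPM), Pcdh18 (29.3 ± 3.96), Pcdh8 (22.3 ± 2.81) and Pcdh20 (9.01 ± 1.70) led them.

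The authors' deposited table of TPM gives another picture of the family, and only 31 members are in it. For 94.5% of 40470 values of at least 1 TPM its values lay within 0.01 (log2) of counts per whole gene span, introns included. In the authors' deposited table Pcdha9, whose span of 189778 bases covers the distance to the constant exons, has 0.335 TPM and Pcdhb17, with a span of 4660 bases, has 52.0 TPM. Per own exon base the same genes had 7.28 and 14.8 TPM. On that scale 12 of the 30 members that could be tested lay above 1 TPM, 0 of them α, 6 β and 6 γ, and 13 lay below, 7 of them α and 6 γ.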

How the data were processed

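The submitters' processing notes name bcl2fastq 2.19.1, STAR 2.5.2b and the GRCm38 build. For the counter, strand setting and annotation release, nothing is given in the sources used here. Values in the deposited table of counts are whole reads per Ensembl gene, not normalised, with 26540656 to 34837657 per library. The TPM deposited by the authors follow whole gene spans and served only as an alternative. Identifiers were matched to GENCODE M21, and 563 of 45706 did not match (0.120% to 0.125% of counts).

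TPM were recomputed from counts over own exon bases, on which 1 TPM per kilobase equals 8.24 to 11.3 counts, depending on the library. Each gene with at least 200 own bases and 10 counts was tested against 1 TPM in edgeR 4.0.16 under R 4.3.3 (two-sided quasi-likelihood F test of the intercept), and p-values were adjusted by Benjamini-Hochberg over 20519 genes with a threshold of 0.05. The scripts were tested on simulated data. Alternatives were other lengths, filters, pseudocounts (0.5 in the levels reported), TMM scaling, limma 3.58.1, DESeq2 1.42.0, and leaving out each replicate. The per own coding base alternative was chosen after seeing the data.

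Named were, per cluster, the 4 highest and 2 lowest tested alternative members, all C-type isoforms, all untested members, and per list the 4 highest genes with Ctcf, Rad21, Smchd1 and Dnmt3b; other names were chosen after their values were seen. The values of 1 gene that this rule names are not reported here. Members and lists were chosen with earlier results of these data known. No sequences are printed.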

Additional observations from a re-analysis of the deposited data

Results flagged for a closer look

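In 4 of the 76 values examined, 1 library stood apart from the other 3, with a gap to the nearest, as a share of the range, above Dixon's 95% critical value; chance gives this in about 1 in 20. Pcdha5 had 3.88 TPM in replicate 1 and 1.81 to 1.91 TPM in the others. The Pcdha11 gene ENSMUSG00000102206 had 0.493 TPM in replicate 3 and 1.05 TPM in each of the others, on 1268 own bases. Pcdhb21 had 3.87 TPM in replicate 2 against 2.88 to 2.92 TPM, and Pcdhgb2 had 7.39 TPM in replicate 2 against 5.19 to 5.50 TPM. The cause was not tested for any of them.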

How the results depend on the processing

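No paired analysis was possible because all libraries belong to 1 group. The number of members above 1 TPM (51) fell to 46 per merged exon, 44 per longest transcript and 12 with the deposited TPM length. Only the last of these moved it by more than 1.5 times. The number below (1) became 3 per merged exon, 2 with own bases counted on the same strand, 3 per longest transcript, 13 with the deposited length, 2 with no count filter and 0 with at least 40 counts. With the deposited length 3 partners (1 before) and 1 δ-protocadherin (0 before) lay below and 5 processing genes (8 before) above; partners below ranged from 0 to 1 with a replicate left out, 0 without replicate 1, 2 or 3, and neighbours below fell to 0 (from 1) with at least 40 counts. The α minus β difference was -1.36 per merged exon, -1.27 per longest transcript, -1.32 with no length, -0.88 with means in place of medians and -1.18 per own coding base. The α minus γ difference was -2.15 per longest transcript, -2.22 with a pseudocount of 1 and -2.64 with 0.1. The β minus γ difference was -0.91, -0.88, -0.95, -1.41 and -1.20 for merged exon, longest transcript, no length, means and own coding base, and -1.76 with a pseudocount of 1; C-type minus others was 0.086, 0.051, 0.23, 1.69 and 0.13 in the same order of 5. Shares per merged exon were 17.0% (Pcdhac1), 13.0% (Pcdhac2), 23.5% (Pcdhgc3), 18.9% (Pcdhgc4) and 1.13% (Pcdhgc5). Per longest transcript Pcdhac2, Pcdhgc3, Pcdhgc4 and Pcdhgc5 took 12.9%, 25.0%, 19.1% and 1.35%, with no length 14.1%, 24.4%, 20.01% and 1.62%, and per own coding base Pcdhgc3 and Pcdhgc5 took 39.5% and 1.13%. The pair Pcdhac2 over Pcdhgc5 turned to -0.14 per longest transcript, -0.14 with no length and -0.19 per own coding base. Log2 levels that changed sign were, per merged exon, Pcdha2 -0.12, Pcdha6 -0.85, Pcdha7 -0.081 and Pcdhb12 -0.075; on the same strand, Pcdhb12 -0.11; per longest transcript, Pcdha2 -0.54, Pcdha3 -0.24, Pcdha5 -0.25, Pcdha6 -1.27, Pcdha7 -0.50 and Pcdhb12 -0.50; with the deposited length, Pcdha2 -3.91, Pcdha5 -3.53, Pcdha9 -1.57, Pcdha12 -1.48, Pcdhac1 -0.59, Pcdhga1 -1.65, Pcdhga4 -0.31, Pcdhgb2 -1.40, Pcdhga6 -0.011, Pcdhgb4 -0.47, Pcdhgb5 -1.46 and Pcdhga9 -1.06; and without replicate 3, the Pcdha11 gene ENSMUSG00000102206 0.070 (-0.21 without replicate 2). The cause was not tested. No member became more variable than the trend in the alternatives run. Genes with few own bases or counts, such as Pcdha1, Pcdha4 and Pcdhb1, are limited by depth.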

Other observations

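Other transcripts of the locus, which are no members, carried counts as well. The antisense RNA BC037039, which lies opposite exon bases of Pcdhgc3, had 28.7 ± 4.78 TPM on 646 own bases (SD, n = 4). On the strand opposite to the protocadherins, Gm26672 had 7.38 ± 2.29 TPM and Gm10544 4.94 ± 0.450 TPM. The long noncoding 3222401L13Rik, on the same strand, had 2.76 ± 0.149 TPM. The antisense model Gm10545 had 0.472 ± 0.454 TPM from 6, 8, 21 and 1 counts. The models Gm42416, Gm37013, Gm37388 and Gm38182, which have no exon base of their own, had 0 counts in all 4 libraries, like Pcdhga10.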
